A study of Mus musculus with 9 samples.

Results

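Translation initiation factors are the proteins that bring the ribosome, the initiator methionyl-tRNA and an mRNA together, and the transcripts of their genes were measured by RNA sequencing in mouse bone marrow-derived macrophages (BMDMs, cells grown from bone marrow that RANKL can turn into osteoclasts). The genes were chosen by name alone: every gene whose symbol begins with Eif followed by a digit from 1 to 6, without Eif2ak2, Eif2s3y and the pseudogenes marked -ps. This gave 55 of the 28379 genes in the table, of which 52 had enough counts to be tested, and 9 names were left out. The expected members Eif2s1, Eif2ak3 and Eif4ebp1 were all present and well counted. One name, Eif2c5, follows an older naming of the Argonaute genes and is annotated as a non-coding RNA, so it is an initiation factor by symbol only, and it was at 0 counts in every library.

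Each of 3 groups had 3 libraries, and all cells received M-CSF (the macrophage growth factor) at 20 ng/ml for 48 h. The PBS group received no further agent and the RANKL group received RANKL (the osteoclast-inducing cytokine) at 100 ng/ml. In the vitamin group, named RANKL + Vit D + K, cells received the same RANKL with calcitriol (active vitamin D) at 1000 nM and MK4 (a form of vitamin K2) at 20 μM per the labels. The vitamins were given together, so the action of one cannot be told apart from that of the other, and no group received them without RANKL. Whether the 3 libraries of a group came from separate cultures or animals is not stated, so p-values measure the spread between these libraries, which may be technical. BMDM cultures are mixed populations, and in such bulk samples fewer cells of a type and less RNA per cell cannot be told apart.

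As background, eIF2 carries the initiator tRNA to the small ribosomal subunit as a complex with GTP, and eIF2B recharges eIF2 with GTP after each round. Stress kinases phosphorylate the α subunit of eIF2 (Eif2s1), which blocks eIF2B, lowers general protein synthesis and favours a few mRNAs such as that of Atf4. The second controlled step is binding of the mRNA cap by eIF4E, which recruits the scaffold eIF4G and the helicase eIF4A, while 4E-binding proteins (4E-BPs), which mTORC1 inactivates by phosphorylation, hold eIF4E away from eIF4G. The large complex eIF3 bridges the mRNA and the small subunit. Transcript levels, which are measured here, say nothing of phosphorylation or of the rate of translation.

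Library totals ran from 65915112 to 68229647 counts, and a floor of 3 counts was at most 4.55e-06% of a library. The initiation factor genes took 0.739 to 0.753% of the counts in PBS, 0.786 to 0.903% with RANKL and 1.02 to 1.24% with RANKL + Vit D + K. Replicate 2 stood apart from replicates 1 and 3 in each group. The chi-square per gene between replicate 2 and the others was 70.9 and 77.8 in PBS, 141 and 164 with RANKL and 460.1 and 297 with RANKL + Vit D + K, against 29.9, 25.3 and 52.0 between replicates 1 and 3. The macrophage identity was checked on 6 markers, whose summed FPKM (fragment counts corrected for transcript length and sequencing depth, so that genes can be compared) was 26250.6 to 30458.7 in PBS, 16580.0 to 24154.7 with RANKL and 4480.08 to 11499.4 with RANKL + Vit D + K. Of these 6 markers, 4 were called lower and 1 higher with the vitamins than with RANKL. Osteoclast markers summed to 10.7 to 16.7, 448 to 943 and 29.8 to 73.1 FPKM in the same order, with 6 of 6 lower with the vitamins and Calcr at 0 in PBS and with the vitamins. Neutrophil markers summed to 11.1 to 128, 11.3 to 148 and 0.551 to 1.72 FPKM, with 6 of 7 lower with the vitamins and Camp, Ltf, Mpo and Elane at 0 there. Dendritic cell markers summed to 0.487 to 0.774, 1.93 to 2.01 and 6.60 to 7.96 FPKM, with Flt3 at 0 with the vitamins. That sum was nearly all Itgax (1.66 to 1.82 FPKM with RANKL and 6.53 to 7.93 with the vitamins), whereas Zbtb46 was at 0.0976 to 0.181 FPKM with RANKL and 0.00593 to 0.0639 FPKM with the vitamins, and 1 gene of this list was called higher and 1 lower. The macrophage sum was likewise mostly Lyz2, at 15002.4 to 22218.8 FPKM with RANKL and 3189.31 to 10167.6 FPKM with the vitamins. The summed markers of stromal, B, T and erythroid cells stayed at or below 0.601 FPKM. These marker levels moved with the vitamin treatment, and their part in the results below was not tested.

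The promoters of the genes were read from RefSeq (GRCm38.p6), which had an entry for 43 of the 55 genes, as windows of 250 bases before and 50 bases after the start. The E-box CACGTG (the same on both strands), which MYC and the MiT family of factors can bind, lay in the window of 10 of these 43 genes (23.3%), against 8.09% of all 27025 genes. Shown are E-boxes of the cap-step genes Eif4e and Eif4a1, of eIF3 subunits that were and were not called, and of the scaffold Eif4g1. They allow the calls to be set beside the letters. Those of Eif1b, Eif4h, Eif5a and Eif5a2, none of which was called with the vitamins against RANKL, are not shown. The capitals mark the motif, and each stretch is written 5′ to 3′ on the strand of the gene.
Eif4e, chr3:138527194-138527219 (+): acacgtccgtCACGTGggcaggagcc
Eif4e, chr3:138527030-138527055 (+): cgccagcgacCACGTGatcacttttt
Eif4a1, chr11:69672597-69672622 (-): atcgcctccgCACGTGtaaaggtgct
Eif3a, chr19:60790656-60790681 (-): gcgagggaatCACGTGgttccttcct
Eif3f, chr7:108934337-108934362 (+): agatatgattCACGTGgtataaattt
Eif3k, chr7:28981917-28981942 (-): ggaaggaaatCACGTGgtagacaaaa
Eif4g1, chr16:20672663-20672688 (+): cagtgggtgtCACGTGatggggcgga
Eif4g1, chr16:20672732-20672757 (+): ctgcgccggtCACGTGgggcgctggc
Of the 10 genes with the E-box, 3 (Eif3a, Eif4a1 and Eif4e) were called higher with the vitamins than with RANKL, 0 were called lower and 7 were not called. Of the 33 without it, 31 were tested, of which 12 were called higher, 5 lower and 14 not called. Of all tested genes, 16.4% were called higher and 17.2% lower in that comparison.

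The ATF4 composite element TGATGNAA, searched on both strands, lay in the window of 1 of the 43 genes (2.33%, against 4.51% of all genes), Eif2s3x, shown here because its gene belongs to the eIF2 step that ATF4 answers to. The vitamin D response element DR3 searched on both strands, was found for 0 of the 43 genes, against 0.455% of all genes. A start at C followed by at least 4 pyrimidines, the feature of mRNAs that mTORC1 controls through their 5′ end, was found for 3 genes, Eif2s3x, Eif3f and Eif2c5 (6.98%, against 3.01% of all genes), and the starts of the protein-coding ones are shown with the pyrimidine run in capitals.
Eif2s3x, ATF4 element on the opposite strand, chrX:94212730-94212757 (-): tcgccatcatTTTCATCAggtctatgcc
Eif2s3x, start, chrX:94212632-94212661 (-): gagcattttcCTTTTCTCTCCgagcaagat
Eif3f, start, chr7:108934405-108934434 (+): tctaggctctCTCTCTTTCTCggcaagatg
A match describes the letters in the window and does not show a bound site.

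RANKL alone changed no initiation factor gene past the threshold. In the comparison of RANKL with PBS by the quasi-likelihood test of edgeR (p-values adjusted after Benjamini and Hochberg over 17002 genes), 0 of 52 tested members were called, and 3.61% of all tested genes were (2.35% higher and 1.26% lower). Of the members, 9 had an unadjusted p under 0.05. DESeq2 called 2 members higher and 0 lower in the same comparison, beside 1050 genes higher and 656 lower over all genes. The groups did not overlap for 23 of the 52 members, 12 higher and 11 lower with RANKL (44.2%), against 35.7% of all tested genes. The member nearest to the threshold was Eif5a, the factor that helps ribosomes through proline stretches and carries the modified residue hypusine. Eif5a was at 167, 185 and 166 CPM (counts scaled to the normalized library size) in PBS and at 278, 434 and 251 CPM with RANKL. All RANKL libraries lay above the PBS libraries, with replicate 2 far above the other two. The log2 fold change of Eif5a was 0.89 ± 0.257 (SE, n = 3 per group, edgeR adjusted p = 0.0978). With the replicate number as a block over all 9 libraries, edgeR called Eif5a at a log2 fold change of 0.84 (adjusted p = 0.0269). The labels do not say that these numbers pair the libraries. DESeq2 called Eif5a as well, at 0.92 (adjusted p = 0.0165), together with Eif4e at 0.65 (adjusted p = 0.0329). Without RANKL + Vit D + K replicate 2 edgeR called Eif5a (adjusted p = 0.0213) and Eif4a1 (adjusted p = 0.0495).

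With the vitamins added to RANKL, 20 of the 52 tested initiation factor genes rose and 6 fell. The 20 higher genes were 38.5% of those tested, against 16.4% of all tested genes, and the 6 lower genes were 11.5%, against 17.2% of all. Of the 52 tested members, 9 were called and rose at least 2-fold (6.81% of all tested genes did). Called and lower by at least 2-fold was 1 member (10.8% of all were). The median log2 fold change was 0.19 over the members and -0.04 over all tested genes. The groups did not overlap for 32 members, 22 higher and 10 lower, which was 61.5% of them and 46.8% of all genes. Because no member was called between RANKL and PBS, none of the 26 members called here had been.

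**Figure D1:**
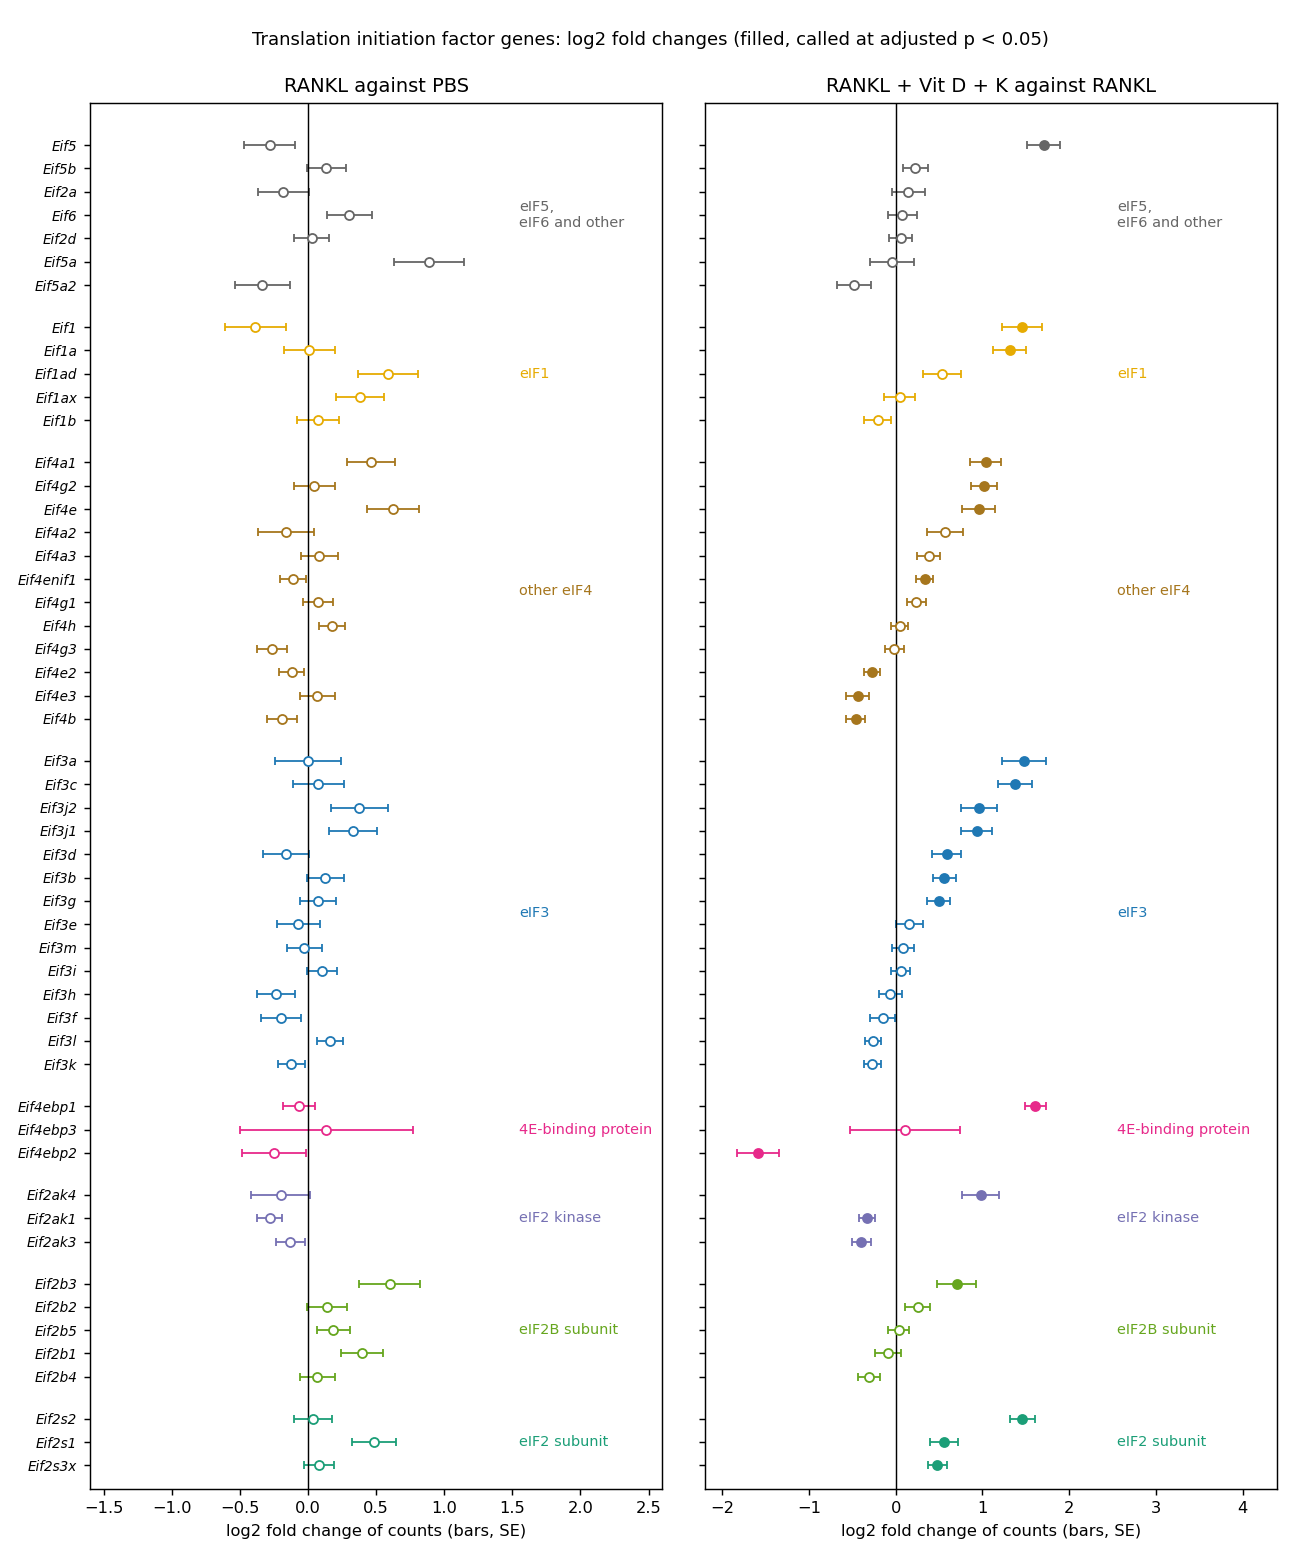
Log2 fold change of each tested initiation factor gene, by class, for RANKL against PBS and for RANKL + Vit D + K against RANKL, with bars for the SE and filled points for called genes. No gene was called with RANKL, and with the vitamins 20 genes were called higher and 6 lower, led upwards by Eif5 at 1.70 and downwards by Eif4ebp2 at -1.59.

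Both the eIF2 step and the eIF3 and eIF4 step held genes that rose and genes that fell. Of the 11 tested subunits of eIF2 and eIF2B and eIF2 kinases, 5 rose and 2 fell (63.6%), and of the 29 tested eIF3 and eIF4 genes including the 4E-BPs, 12 rose and 4 fell (55.2%). The background for either direction was 33.7% of all tested genes. Within the first group the 3 eIF2 subunits rose, 1 of 5 eIF2B subunits did, and the kinases split 1 up and 2 down. Within the second group eIF3 had 7 of 14 members higher and 0 lower, and eIF4 had members in both directions. The absence of lower eIF3 calls depended on the fit, since 2 were lower with DESeq2 (Eif3k and Eif3l) and 3 with limma on FPKM at either pseudocount (these and Eif3f). Leaving out 1 library lowered the count for all members to as few as 14 higher without RANKL replicate 1 or 3 and 1 lower without either of them, and raised it to 27 higher and 9 lower without RANKL + Vit D + K replicate 2. The counts over all genes moved as well, from 2796 higher and 2929 lower with all libraries. They were 1578 and 1621 without RANKL replicate 1 and 1752 and 1755 without RANKL replicate 3. Without RANKL + Vit D + K replicate 2 they were 3773 and 4486. For 22 of the 26 called members, RANKL + Vit D + K replicate 2 was the vitamin library nearest to the RANKL mean.

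The 3 eIF2 subunit genes chosen by the rule all rose with the vitamins, Eif2s2 most. The Y-linked γ subunit Eif2s3y, left out by name, did not pass the test (log2 -0.10, adjusted p = 0.561), and its RANKL and vitamin libraries overlapped at 82.0 to 95.5 and 70.0 to 90.4 CPM. Eif2s2, the β subunit, which binds the partner factors eIF5 and eIF2B, was at 108, 106 and 111 CPM in PBS, at 104, 119.9 and 108 CPM with RANKL, and at 359.9, 243 and 312 CPM with the vitamins. Every vitamin library lay above every library of the other groups, by a wide gap. The log2 fold change of Eif2s2 was 1.46 ± 0.145 (SE, n = 3, a 2.75-fold rise, edgeR adjusted p = 0.000437). Eif2s3x, the X-linked γ subunit that binds the tRNA and GTP, was at 111, 116 and 114 CPM in PBS, at 116, 127 and 119.9 CPM with RANKL, and at 188, 148 and 169 CPM with the vitamins. The vitamin libraries were again the highest, and the PBS and RANKL libraries were close together. Eif2s3x rose by 0.48 ± 0.109 on the log2 scale (SE, adjusted p = 0.0108), and this call was lost without RANKL replicate 1 (0.45, adjusted p = 0.0526).

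The α subunit Eif2s1, the target of the stress kinases (chr12:78861819-78887010 in the table, whose coordinates are those of GRCm38), was at 56.4, 55.5 and 52.0 CPM in PBS, at 69.3, 96.3 and 64.4 CPM with RANKL, and at 126, 100.5 and 112 CPM with the vitamins. Unlike the other subunits, its RANKL libraries all lay above PBS, and RANKL replicate 2 came close to the lowest vitamin library. Against RANKL the rise was 1.47-fold (log2 0.56 ± 0.161 SE, adjusted p = 0.0260), and it was 0.49 for RANKL against PBS (adjusted p = 0.141, not called). The call against RANKL was lost without any of PBS replicates 1, 2 and 3, RANKL replicates 1 and 3, or RANKL + Vit D + K replicates 1 and 3, with log2 fold changes of 0.45 to 0.55 and adjusted p of 0.0512 to 0.101. It was also lost with no filter on low counts, with only the 2 groups compared and with limma on FPKM at either pseudocount. The FPKM ratio of Eif2s2 to Eif2s1 was 1.4, 1.4 and 1.56 in PBS, 1.10, 0.912 and 1.23 with RANKL, and 2.09, 1.77 and 2.03 with the vitamins, so the subunit transcripts did not move in step.

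Among the subunits of eIF2B, the exchange factor that recharges eIF2, Eif2b3 alone was called by edgeR with all libraries. Eif2b3, part of the catalytic subcomplex, was at 7.55, 5.28 and 8.24 CPM in PBS, at 8.91, 13.5 and 9.53 CPM with RANKL, and at 19.1, 15.8 and 17 CPM with the vitamins. The vitamin libraries were the highest, and RANKL replicate 2 was the nearest to them. Eif2b3 rose 1.63-fold (log2 0.70 ± 0.224 SE, adjusted p = 0.0384), and it lost the call without any of PBS replicates 1 and 3, RANKL replicates 1 and 3, or RANKL + Vit D + K replicates 1 and 3 (0.59 to 0.71, adjusted p of 0.0556 to 0.135). It was also not called by limma on log2(FPKM + 0.1) (0.55, adjusted p = 0.11). Eif2b4, a regulatory subunit that senses phosphorylated eIF2, was at 23.0, 21.3 and 19.8 CPM in PBS, at 23.4, 23.3 and 20.7 CPM with RANKL and at 18.4, 19.4 and 16.6 CPM with the vitamins. Its vitamin libraries lay below all RANKL libraries, with a log2 difference of -0.31 that missed the threshold (adjusted p = 0.0925). Eif2b4 was called lower in 5 of 19 alternative settings, among them DESeq2 (-0.32, adjusted p = 0.0475), limma on log2(FPKM + 0.1) (-0.45, adjusted p = 0.0374) and the fit without RANKL + Vit D + K replicate 2 (-0.36, adjusted p = 0.0452).

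The levels of the remaining eIF2B subunits overlapped between RANKL and the vitamins, and none was called with all libraries in edgeR. Eif2b5, the catalytic subunit, was at 42.3, 45.8 and 44.1 CPM in PBS, at 53.1, 53.6 and 43.5 CPM with RANKL and at 47.2, 56.2 and 50.4 CPM with the vitamins. Its interval for the difference between vitamins and RANKL ran from -0.26 to 0.33 on the log2 scale. Eif2b1, the α regulatory subunit, was at 19.4, 18.4 and 16.7 CPM in PBS, at 21.9, 28.9 and 21.1 CPM with RANKL and at 23.1, 23.6 and 21 CPM with the vitamins (interval -0.46 to 0.28). Eif2b2, the β regulatory subunit, was at 30.0, 33.9 and 27.9 CPM in PBS, at 33.4, 34.6 and 33.3 CPM with RANKL and at 43.8, 32.4 and 44.5 CPM with the vitamins (interval -0.10 to 0.61). For Eif2b2, vitamin replicate 2 lay below the RANKL libraries while the other vitamin libraries lay above them, and without that replicate Eif2b2 was called higher (0.39, adjusted p = 0.0164). The mean FPKM of the eIF2 subunits relative to that of the eIF2B subunits was 1.92 ± 0.0836 in PBS, 1.87 ± 0.106 with RANKL and 3.14 ± 0.399 with the vitamins (SD, n = 3), a description chosen after the values were seen.

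The eIF2 kinases moved in opposite directions. Eif2ak4 encodes GCN2, which is activated by uncharged tRNA, and it was at 39.5, 39.9 and 46.0 CPM in PBS, at 35.8, 33.6 and 39.8 CPM with RANKL and at 91.2, 46.9 and 77.1 CPM with the vitamins. Replicates 1 and 3 with the vitamins were far above all other libraries, and replicate 2 was barely above them. Eif2ak4 rose 1.97-fold (log2 0.98 ± 0.217 SE, edgeR adjusted p = 0.00939). Eif2ak3 encodes PERK, the kinase of the endoplasmic reticulum stress response (chr6:70844515-70905245), and it was at 59.7, 60.0 and 61.2 CPM in PBS, at 58.8, 52.4 and 54.2 CPM with RANKL and at 38.1, 46.6 and 41.0 CPM with the vitamins. The vitamin libraries were the lowest of all, with replicate 2 again nearest to RANKL. Eif2ak3 fell by 0.40 ± 0.108 on the log2 scale (1.32-fold, adjusted p = 0.0217), and the call was lost without RANKL replicate 1 or 3 or RANKL + Vit D + K replicate 1 or 3 (-0.41 to -0.33, adjusted p of 0.0623 to 0.0933).

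Eif2ak1, which encodes the haem-regulated kinase HRI, also fell. It was at 129.5, 122 and 122 CPM in PBS, at 103, 101 and 103 CPM with RANKL and at 86.9, 82.1 and 74.6 CPM with the vitamins. The 3 groups formed a descending order with no overlap. The fall against RANKL was 0.33 ± 0.095 on the log2 scale (SE, adjusted p = 0.0255), lost without RANKL replicate 1 or 3 or RANKL + Vit D + K replicate 3 (-0.33 to -0.28, adjusted p of 0.0791 to 0.102), and the step from PBS to RANKL was -0.28 (adjusted p = 0.147, not called). Per length, the ratio of Eif2ak4 to Eif2ak3 was 0.560 ± 0.0408 in PBS, 0.534 ± 0.0526 with RANKL and 1.42 ± 0.567 with the vitamins (SD, n = 3), where the single libraries were at 1.93, 0.814 and 1.52. In the vitamin replicates 1 and 3 the GCN2 transcript therefore passed that of PERK, and in replicate 2 it did not. Around these kinases, 8 of 11 tested genes of the eIF2 phosphorylation circuit rose with the vitamins (72.7%, against 16.4% of all tested genes) and 0 fell, with a median log2 fold change of 3.05 for the list. The list joins regulators of eIF2 phosphorylation with genes that act downstream of it, and 5 of the 8 that rose (Atf4, Ddit3, Trib3, Chac1 and Atf5, at 2.46 to 7.62) were of the downstream kind. The regulators that rose were Ppp1r15b (0.87) and Ppp1r15a, which encodes the phosphatase partner GADD34 that reverses eIF2 phosphorylation (3.22, adjusted p = 0.00118), and Impact, which encodes an inhibitor of GCN2 (3.05, adjusted p = 0.00331). The GCN2 activator Gcn1 (-0.09), the PERK inhibitor Dnajc3 (-0.27) and Nck1 (-0.16) were not called.

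**Figure D2:**
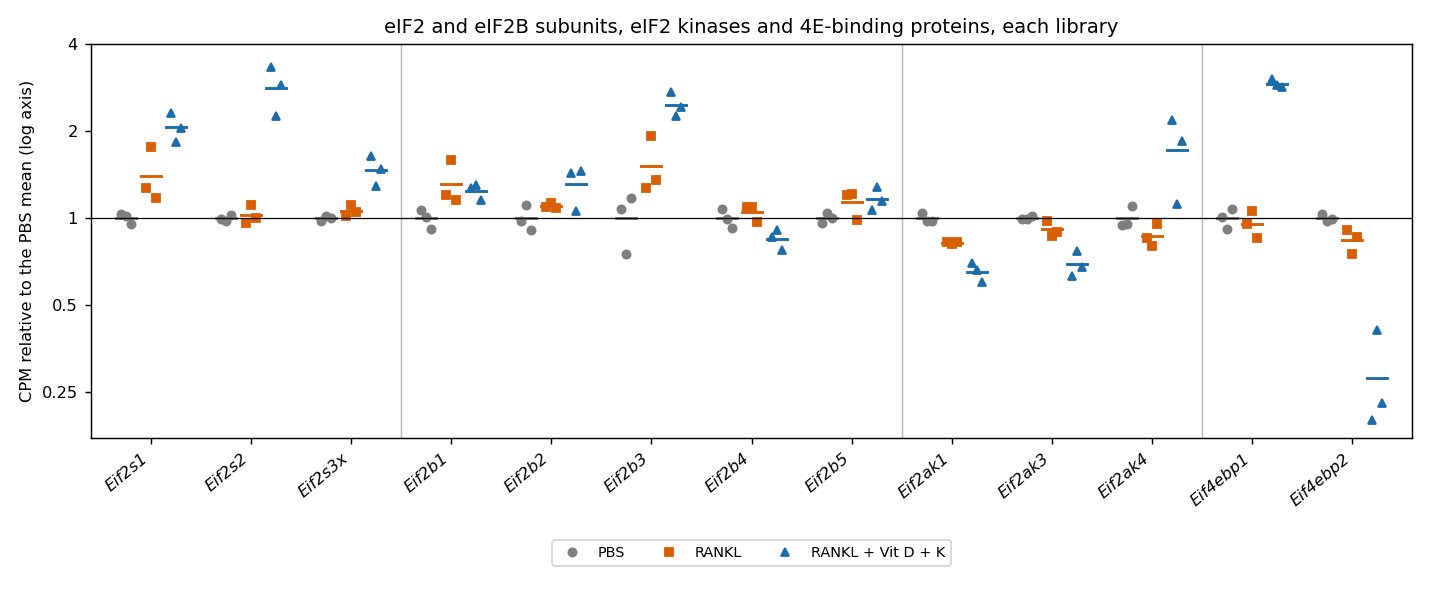
CPM of the eIF2 subunits, eIF2B subunits, eIF2 kinases, Eif4ebp1 and Eif4ebp2 divided by the mean of the PBS libraries (log axis), with a point for each of the 3 libraries per group and a bar for the mean. The vitamin libraries are the highest for Eif2s2 (243 to 359.9 CPM), Eif2ak4 and Eif4ebp1 and the lowest for Eif2ak3, Eif2ak1 and Eif4ebp2, while Eif2b1 and Eif2b5 overlap.

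The 4E-BPs, the brakes on eIF4E, changed in opposite directions and nearly exchanged places. Eif4ebp1 (chr8:27260329-27276674) was at 38.4, 34.7 and 40.8 CPM in PBS, at 36.3, 40.3 and 32.3 CPM with RANKL and at 115, 109.6 and 107.5 CPM with the vitamins. PBS and RANKL overlapped, and the vitamin libraries stood together well above both, replicate 2 included. Eif4ebp1 rose 3.05-fold (log2 1.61 ± 0.118 SE, edgeR adjusted p = 0.000186). Eif4ebp2 (chr10:61428491-61452661) was at 295, 279 and 284 CPM in PBS, at 260.2, 215 and 247 CPM with RANKL and at 57.2, 117 and 65.6 CPM with the vitamins. Here vitamin replicate 2 lay between the other vitamin libraries and RANKL, and the groups did not overlap. Eif4ebp2 fell 3.01-fold (log2 -1.59 ± 0.242 SE, adjusted p = 0.00212). Eif4ebp3 was near the limit of detection, with 8, 34 and 44 counts in PBS, 21, 41 and 43 with RANKL and 22, 42 and 38 with the vitamins, and its interval for vitamins against RANKL (-1.45 to 1.65, log2) allows a change in either direction.

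Because these genes differ in length and level, their balance was described in FPKM. The ratio of Eif4ebp1 to Eif4ebp2 was 0.349 ± 0.0264 in PBS, 0.401 ± 0.0800 with RANKL and 4.03 ± 1.45 with the vitamins (SD, n = 3), ranging from 2.46 to 5.31 over the vitamin libraries. The sum of the 3 genes was 58.5 ± 0.895 FPKM in PBS, 55.7 ± 2.16 FPKM with RANKL and 56.0 ± 9.42 FPKM with the vitamins. The main 4E-BP transcript thus passed from Eif4ebp2 to Eif4ebp1 while the summed level stayed within the spread of the vitamin libraries. Against Eif4e, the summed 4E-BP level was 9.06 ± 1.16 in PBS, 5.39 ± 1.6 with RANKL and 2.91 ± 0.423 with the vitamins. All 3 vitamin libraries were below the lowest RANKL library, at 3.63, and vitamin replicate 2 came close to it at 3.40. These ratios were chosen after the values were seen and are given with no test.

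**Figure D3:**
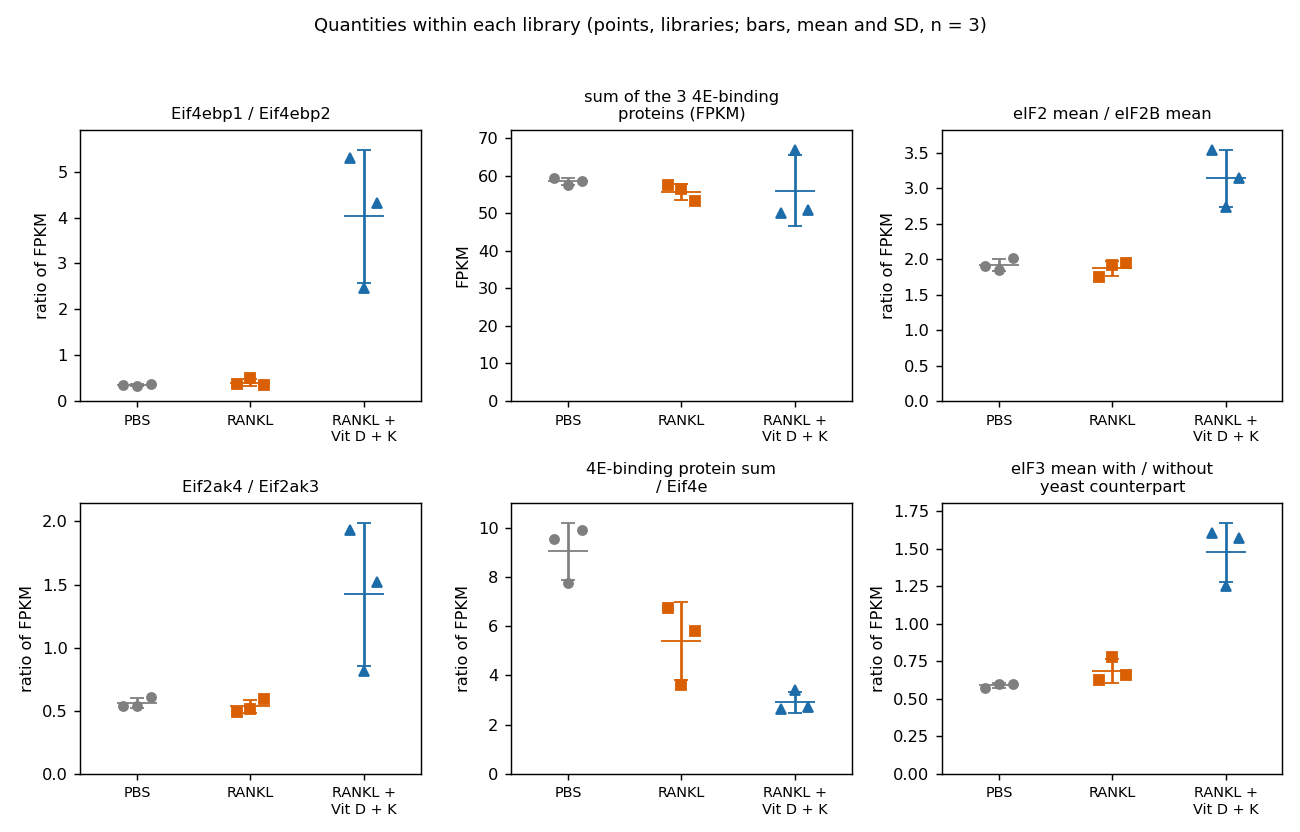
Ratios of FPKM between initiation factor transcripts in each library, with the mean and SD of 3 libraries per group. Eif4ebp1 relative to Eif4ebp2 was below 1 in every PBS and RANKL library and between 2.46 and 5.31 with the vitamins, and the eIF3 subunits with a budding yeast counterpart relative to those without went from 0.589 in PBS to 1.48 with the vitamins.

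Of the 12 tested eIF4 genes other than 4E-BPs, 4 rose with the vitamins (33.3%, against 16.4% of all tested genes) and 3 fell (25%, against 17.2% of all). Those that rose were Eif4e, Eif4a1, Eif4g2 and Eif4enif1. Eif4e, the cap-binding protein, was at 43.3, 50.3 and 41.6 CPM in PBS, at 55.2, 93.3 and 60.2 CPM with RANKL and at 143, 125 and 136 CPM with the vitamins. The groups were ordered without overlap, and RANKL replicate 2 was well above the other RANKL libraries. Eif4e rose 1.94-fold against RANKL (log2 0.96 ± 0.192 SE, edgeR adjusted p = 0.00634), after a step of 0.63 from PBS to RANKL that was not called (adjusted p = 0.114). Eif4a1, the main cap-complex helicase, was at 359.6, 382.5 and 353 CPM in PBS, at 473, 589.7 and 445 CPM with RANKL and at 1267, 787 and 1038 CPM with the vitamins, again in order and without overlap. It rose 2.05-fold (log2 1.04 ± 0.179 SE, adjusted p = 0.00357), while the helicase paralogs Eif4a2 (0.56, adjusted p = 0.0641) and Eif4a3 (0.38, adjusted p = 0.0542) were not called. The FPKM ratio of Eif4a1 to Eif4a2 was 2.13 in PBS, 3.30 with RANKL and 4.61 with the vitamins. The pseudogene Eif4a-ps4, left out by name, held 4026 to 4707, 5382 to 8387 and 10839 to 13759 counts and rose with the vitamins by 1.02 on the log2 scale, so reads of Eif4a1 and this copy may not have been separated.

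Among the scaffolds, Eif4g2 rose and the others were not called. Eif4g2 encodes DAP5, which lacks the eIF4E-binding site and serves cap-independent initiation, and it was at 732, 748 and 769.7 CPM in PBS, at 714, 887 and 721 CPM with RANKL and at 1854, 1275 and 1575 CPM with the vitamins. The vitamin libraries were all above the rest, with replicate 2 the lowest of them. The rise was 2.03-fold (log2 1.02 ± 0.152 SE, adjusted p = 0.00198), and the FPKM ratio of Eif4g2 to the canonical scaffold Eif4g1 was 1.33 in PBS, 1.3 with RANKL and 2.22 with the vitamins. Eif4e relative to Eif4g1 was 0.136, 0.195 and 0.324 in the same order. Eif4enif1, which encodes the eIF4E transporter 4E-T, rose by 0.33 ± 0.096 on the log2 scale (SE, adjusted p = 0.0263), a call lost without any of PBS replicates 1 and 3, RANKL replicates 1, 2 and 3, or RANKL + Vit D + K replicates 1 and 3 (adjusted p of 0.0505 to 0.0989).

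The falling eIF4 genes were Eif4b, which stimulates the helicase, and the eIF4E paralogs Eif4e2 and Eif4e3. Eif4b, the eIF4 gene with the highest mean FPKM in PBS and with RANKL, was at 870.1, 749.5 and 839 CPM in PBS, at 763, 645 and 749.7 CPM with RANKL and at 549, 508 and 505 CPM with the vitamins. PBS and RANKL overlapped, and the vitamin libraries were the lowest. Eif4b fell 1.38-fold (log2 -0.46 ± 0.110 SE, adjusted p = 0.0125), a call lost without RANKL replicate 1 or 3 (adjusted p of 0.0516 to 0.0574). Eif4e2, whose protein 4EHP competes for the cap without recruiting eIF4G, was at 84.1, 84.5 and 91.8 CPM in PBS, at 78.7, 79.8 and 81.4 CPM with RANKL and at 67.7, 67.7 and 62.5 CPM with the vitamins. Its libraries were tight and ordered without overlap, and the fall was 1.21-fold (log2 -0.28 ± 0.092 SE, adjusted p = 0.0439), lost without any 1 library other than RANKL + Vit D + K replicate 2 (adjusted p of 0.0673 to 0.159). Eif4e3 was at 36.5, 32.2 and 32.4 CPM in PBS, at 38.5, 33.9 and 33.6 CPM with RANKL and at 23.1, 29.3 and 25.7 CPM with the vitamins, all below the other groups. It fell 1.36-fold (log2 -0.44 ± 0.130 SE, adjusted p = 0.0289), a call lost without PBS replicate 3, RANKL replicate 1 or 3 or RANKL + Vit D + K replicate 1 or 3 (adjusted p of 0.0523 to 0.116). In the surrounding list of mTORC1 and cap regulation, 5 of 15 tested genes rose with the vitamins (33.3%, against 16.4% of all tested genes) and 1 fell (6.67%, against 17.2% of all). Those that rose were Sesn2, an inhibitor of mTORC1 in amino acid shortage (1.71), Tsc1 (0.95), Rheb (0.85), Larp1 (0.58) and Rps6kb1 (0.49), and the one that fell was Pdcd4, an inhibitor of eIF4A (-1.12).

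In eIF3, 7 of 14 subunit genes rose with the vitamins (50%, against 16.4% of all tested genes), led by Eif3a and Eif3c, and 7 were not called. Eif3a, the large scaffold subunit, was at 563, 543 and 561 CPM in PBS, at 530.0, 559.9 and 579 CPM with RANKL and at 2021, 895.5 and 1739 CPM with the vitamins. PBS and RANKL were alike in range, and the vitamin libraries were all higher, with replicate 2 far below the other two. Eif3a rose 2.79-fold (log2 1.48 ± 0.250 SE, edgeR adjusted p = 0.00327). Eif3c, its partner in the core, was at 262.5, 256 and 270.1 CPM in PBS, at 257.5, 297 and 277 CPM with RANKL and at 894, 493 and 773 CPM with the vitamins, with the vitamin libraries in the same order as for Eif3a. It rose 2.60-fold (log2 1.38 ± 0.194 SE, adjusted p = 0.00157). Eif3j1, the loosely bound subunit near the decoding site, was at 36.2, 28.8 and 34.1 CPM in PBS, at 36.5, 48.8 and 39.2 CPM with RANKL and at 89.6, 61.4 and 86.5 CPM with the vitamins. Its vitamin libraries were all above RANKL, and the rise was 1.91-fold (log2 0.93 ± 0.178 SE, adjusted p = 0.00534). Its near-copy Eif3j2 (lowest FPKM of the complex) had a log2 fold change of 0.96 ± 0.209 (SE, adjusted p = 0.00881), and the counting may have divided reads between these 2 genes.

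Eif3b, Eif3d and Eif3g rose less, and their calls depended on single libraries. Eif3b, a scaffold of the RNA-binding lobe, rose by 0.56 on the log2 scale (adjusted p = 0.0126), lost without RANKL replicate 1 or 3 (adjusted p of 0.0553 to 0.0573). Eif3d, which can itself bind the cap of selected mRNAs, rose by 0.59 (adjusted p = 0.0258), lost without any RANKL replicate or RANKL + Vit D + K replicate 1 or 3 (adjusted p of 0.0643 to 0.0774). Eif3g, an RNA-binding subunit, rose by 0.50 (adjusted p = 0.0207), lost without RANKL replicate 3 or RANKL + Vit D + K replicate 1 or 3 (adjusted p of 0.0729 to 0.0815). The subunits Eif3e, Eif3f, Eif3h, Eif3i, Eif3k, Eif3l and Eif3m were not called. Eif3h, with the highest FPKM of the complex in PBS and with RANKL, was at 259, 243 and 259 CPM in PBS, at 228, 197 and 221.5 CPM with RANKL and at 244, 169.7 and 206 CPM with the vitamins, so its RANKL and vitamin libraries overlapped. For Eif3k and Eif3l the vitamin libraries were all below the RANKL libraries, at log2 differences of -0.27 and -0.26. The main edgeR fit did not call them (adjusted p = 0.0637 and 0.0618). Eif3k was called lower in 8 and Eif3l in 7 of 19 alternative settings. Among these, DESeq2 called both lower, at -0.28 each (adjusted p = 0.0218 and 0.0242).

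The subunits that rose were mostly those with a counterpart in budding yeast, which has a smaller eIF3. Of Eif3a, Eif3b, Eif3c, Eif3g, Eif3i, Eif3j1 and Eif3j2, 6 of 7 were called higher with a median log2 fold change of 0.93, and of Eif3d, Eif3e, Eif3f, Eif3h, Eif3k, Eif3l and Eif3m, 1 of 7 (Eif3d) was called higher with a median of -0.06. Over all tested genes 16.4% were called higher and the median was -0.04. In FPKM, the mean of the first set relative to that of the second was 0.569, 0.598 and 0.600 in PBS, 0.624, 0.778 and 0.658 with RANKL, and 1.61, 1.25 and 1.57 with the vitamins. Eif3j1 and Eif3j2 are near-copies between which reads may have been divided, so they are not separate evidence. The calls of Eif3b and Eif3g depended on single libraries. This split was made after the values were seen and is a description. In mean FPKM, Eif3a and Eif3c thereby passed Eif3h, at 149 and 173 FPKM against 109 FPKM with the vitamins. The lowest vitamin library of Eif3a, at 96.7 FPKM, lay below every vitamin library of Eif3h (99.2 to 121 FPKM).

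**Figure D4:**
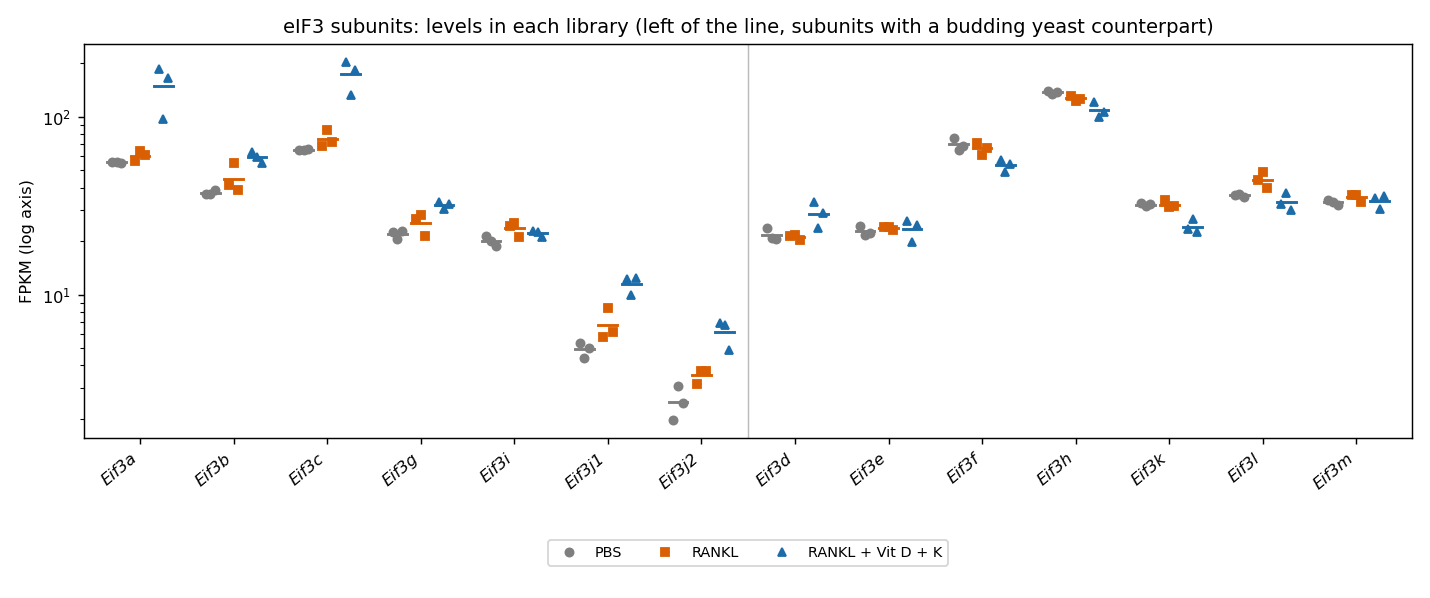
FPKM of the eIF3 subunits (log axis) in each library of the 3 groups, with the mean of 3 libraries as a bar. Eif3a and Eif3c rise with the vitamins to means of 149 and 173 FPKM, above the Eif3h mean of 109 FPKM. Eif3h, Eif3f, Eif3k and Eif3l have vitamin levels among or below those of the RANKL libraries.

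Of the 5 genes with an eIF1 name, among them factors of start codon selection, Eif1 and Eif1a rose with the vitamins. These were 40%, against 16.4% of all tested genes, and 3 were not called. Eif1, which keeps the scanning ribosome open until the start codon, was at 281, 263 and 312 CPM in PBS, at 225, 200.3 and 229 CPM with RANKL and at 782, 377 and 635 CPM with the vitamins. RANKL libraries were below PBS and the vitamin libraries above both. Eif1 rose 2.74-fold against RANKL (log2 1.45 ± 0.230 SE, edgeR adjusted p = 0.00252) and had the highest mean FPKM of all initiation factors with the vitamins, 239.7. Eif1a, which works beside eIF1 on the small subunit, was at 69.9, 71.9 and 65.3 CPM in PBS, at 70.4, 68.9 and 69.4 CPM with RANKL and at 211, 118 and 189.9 CPM with the vitamins, and the first 2 groups were closely alike. It rose 2.49-fold (log2 1.31 ± 0.190 SE, adjusted p = 0.00178), whereas its near-copy Eif1ax was not called, and reads could have been shared between them. Eif1b, a paralog of Eif1, was at 21.8, 26.8 and 25.3 CPM in PBS, at 22.5, 28.3 and 27.0 CPM with RANKL and at 25.6, 20.2 and 21.3 CPM with the vitamins, with overlap between all groups, and was not called (interval -0.58 to 0.16 for vitamins against RANKL). Eif1ad, the lowest of the eIF1 genes in mean FPKM in PBS and with RANKL, was at 15.0, 14.6 and 12.5 CPM in PBS, at 16.3, 28.1 and 18.9 CPM with RANKL and at 27.5, 36.9 and 27.0 CPM with the vitamins. Its RANKL and vitamin libraries overlapped through RANKL replicate 2, and the difference was not called (0.53, adjusted p = 0.0912).

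Eif5 is the GTPase activator of eIF2 and also competes with eIF1 in start site choice. Of the 52 tested members it had the largest log2 fold change with the vitamins against RANKL. It was at 245.5, 245 and 238 CPM in PBS, at 194, 219 and 186 CPM with RANKL and at 821, 459 and 674 CPM with the vitamins. All vitamin libraries were well above the rest, with replicate 2 the lowest of them, and RANKL was below PBS. Eif5 rose 3.26-fold (log2 1.70 ± 0.191 SE, edgeR adjusted p = 0.00074). Eif1, Eif2s2 and Eif5 had similar log2 fold changes, at 1.45 to 1.70. The other eIF2 subunits Eif2s1 and Eif2s3x rose less, by 0.56 and 0.48. These genes were set side by side after the values were seen. Eif5a, by contrast, was at 252, 431 and 251 CPM with the vitamins, close in level to its RANKL libraries. Its paralog Eif5a2 was at 9.18, 9.74 and 13.4 CPM in PBS, at 9.14, 7.67 and 8.81 CPM with RANKL and at 7.06, 5.62 and 5.65 CPM with the vitamins. The vitamin libraries of Eif5a2 lay below all others, and it was not called by edgeR against RANKL (-0.48, adjusted p = 0.0918). Of the 7 tested genes of eIF5, eIF6 and other factors, Eif5 was the 1 that was called (14.3%, against 33.7% of all tested genes called in either direction and 16.4% higher).

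**Figure D5:**
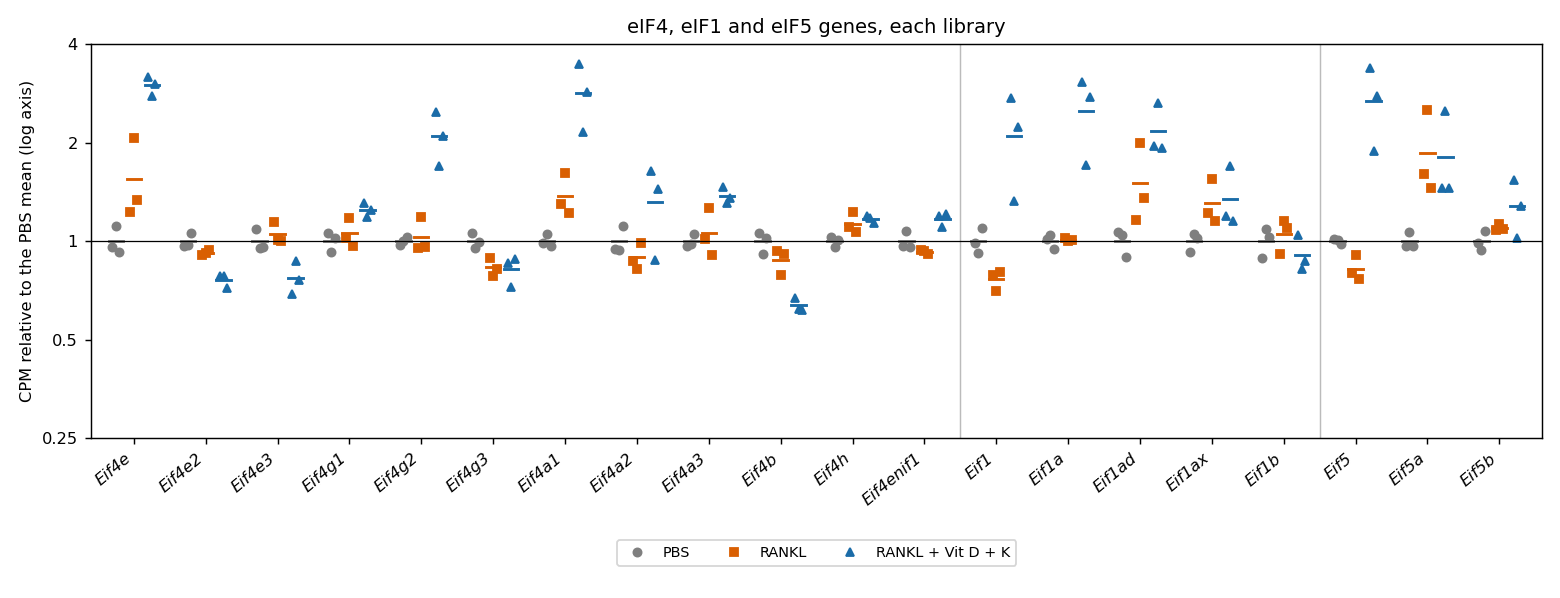
CPM of eIF4, eIF1 and eIF5 genes in each library divided by the mean of the PBS libraries (log axis), with the mean of 3 libraries per group as a bar. The vitamin libraries are above all others for Eif4g2, Eif4a1, Eif4e, Eif1, Eif1a and Eif5 and below all others for Eif4b, Eif4e2 and Eif4e3, and Eif5a replicate 2 is the highest with RANKL (434 CPM) and with the vitamins (431 CPM).

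The order of the transcripts by level changed with the vitamins. In mean FPKM, the highest initiation factors in PBS were Eif4b (159), Eif3h (137) and Eif1 (118), and with RANKL they were Eif4b (152), Eif5a (129) and Eif3h (127). With RANKL + Vit D + K they were Eif1 (239.7), Eif4a1 (201) and Eif3c (173), followed by Eif3a (149), Eif4g2 (131) and Eif5a (114). Eif4b was at 99.9 FPKM there. Of 11 tested accessory factors outside the family, Denr (1.06), Abce1 (0.63), Pabpc1 (0.43) and Dhx29 (0.35) rose with the vitamins (36.4%, against 16.4% of all tested genes) and the helicase Ddx3x fell (-0.72). Of 9 elongation and termination genes tested, 3 rose, namely Eef1e1 (1.46), the eEF2 kinase Eef2k (0.99) and the release factor Etf1 (0.79) (33.3%, against 16.4% of all tested genes), and 0 fell.

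RANKL + Vit D + K was also compared with PBS, using the same vitamin libraries as the comparison above. In this comparison 30 of 52 tested members were called (40.8% of all tested genes were), 22 of them higher (19.8% of all were) and 8 lower (21% of all were). Without PBS replicate 3 or RANKL + Vit D + K replicate 3 the lower count was 4, and without single libraries the higher count was 18 (PBS replicate 1) to 27 (RANKL + Vit D + K replicate 2). Over all genes the lower count was 3564 with all libraries. It was 2398 without PBS replicate 3 and 2350 without RANKL + Vit D + K replicate 3. The higher count over all genes was 3368 with all libraries. It was 2469 without PBS replicate 1 and 4143 without RANKL + Vit D + K replicate 2. The calls lost without at least 1 library were those of Eif2ak4, Eif3k, Eif4a3, Eif4e2, Eif4e3, Eif4g1, Eif5a and Eif5a2. In all, the groups did not overlap for 39 members (75%, against 53.1% of all). For Eif2s1 and Eif4e the log2 fold changes were 1.05 (adjusted p = 0.00142) and 1.58 against PBS, beside 0.56 and 0.96 against RANKL. For Eif2s2, Eif3a and Eif4ebp1 the values were 1.5, 1.48 and 1.55 against PBS beside 1.46, 1.48 and 1.61 against RANKL. The kinases Eif2ak1 and Eif2ak3 were lower than in PBS by log2 values of -0.61 and -0.53. Eif2ak4 was higher by 0.78, a call lost without PBS replicate 1 (adjusted p = 0.0521). Eif1ad, not called against RANKL, was higher than in PBS by 1.12 on the log2 scale (adjusted p = 0.0043).

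Members not tested were the eIF4A3-like genes Eif4a3l1 and Eif4a3l2 and Eif2c5. Eif4a3l1 had 4 and 3 counts in RANKL replicates 2 and 3 and 0 in the other libraries, and Eif4a3l2 had at most 4 counts in any library, near the floor of 3 counts. The names left out by the rule include Eif2ak2, the eIF2 kinase PKR that double-stranded RNA activates, which held 3585 to 3970 counts in PBS, 4175 to 5194 with RANKL and 687 to 2659 with the vitamins. It was called lower with the vitamins (log2 -1.6, adjusted p = 0.0115), so among the eIF2 kinases with it included Eif2ak4 was the 1 that rose.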

How the data were processed

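RNA was sequenced as paired-end reads from 9 libraries of mouse BMDMs. Per the submitters' processing notes the tools were cutadapt 1.9, HISAT2 2.0.4, StringTie 1.3.4d and edgeR. The notes name a human genome build, whereas the deposited gene coordinates are mouse and are those of GENCODE M21 (GRCm38). The authors deposited 1 table with whole-number read counts per gene, not normalized, and FPKM values, in which the authors scaled reads to gene length and library size. Whether counting used strand or divided reads between similar genes is not given in the sources used here, and reads carry no molecular identifiers, so counting limits cover counting error only. The study's methods speak of pooled RNA and give another MK4 dose than the labels.

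Tests on the counts used edgeR 4.0.16 under R 4.3.3: filterByExpr kept 17002 of 28379 genes, libraries were scaled by TMM, and all 9 entered 1 quasi-likelihood model, with Benjamini-Hochberg adjustment over all tested genes and a threshold of 0.05. CPM are counts scaled to the TMM-adjusted library size. The standard error is the log2 fold change divided by the square root of F, and 95% intervals use 6 residual degrees of freedom. Medians, FPKM ratios and promoter matches carry no test. The smallest two-sided p of an exact permutation test of 3 against 3 libraries is 0.1. On simulated counts for vitamins against RANKL (17002 genes), edgeR called 23% of 100 genes changed 2-fold and 51% of 100 changed 4-fold, with 2 false calls among 16802 unchanged genes. DESeq2 called 43% and 69%, with 49 false calls.

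The members, the lists and the named genes were chosen with earlier results of these data known. Named in every library were Eif2ak3, Eif2s1, Eif4ebp1 and the other eIF2, eIF2B, eIF2 kinase and 4E-BP genes. In each other class the up to 3 called genes per direction with the smallest p for vitamins against RANKL and those with the highest and lowest mean FPKM were named, and other names were added after their values were seen. Whether replicate numbers pair the libraries is not known, so the replicate block served as an alternative only. Deviations of same-numbered libraries correlated weakly between PBS and RANKL (0.122, 0.219 and 0.155) and between RANKL and the vitamins (0.00625, 0.0428 and 0.107). These values cannot decide the pairing, because 0.122 and 0.107 lie close together and differently numbered libraries are not given for comparison. The alternatives were DESeq2 1.42.0, limma 3.58.1 on log2(FPKM + 0.1) and log2(FPKM + 1), voom with sample quality weights, other size factors and filters, counts divided by 4, only the 2 groups compared, the replicate block and each library left out. Promoters were searched with Python 3.11.15.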

Additional observations from a re-analysis of the deposited data

How the results depend on the processing

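For the 26 members called with the vitamins against RANKL, 421 of 494 values under 19 alternatives kept the call, 73 lost it and 0 changed direction, and 14 members kept it under all 19 (Eif2s2, Eif2ak4, Eif4ebp1, Eif4ebp2, Eif3a, Eif3c, Eif3j1, Eif3j2, Eif4a1, Eif4e, Eif4g2, Eif1, Eif1a and Eif5). Against PBS, 526 of 570 values kept the call. On the counts simulated for vitamins against RANKL, edgeR missed a 2-fold change more often than it found it. The changed genes there were few and drawn from all tested genes, so that share may not hold for the members. An uncalled member is not shown to be unaltered. The causes of the changes below were not tested.

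Between RANKL and PBS the count higher, 0, was 2 with DESeq2, 2 with only those groups, 4 with voom weights (4 lower), 1 (Eif5a) with the replicate block, and 0 to 2 without single libraries. Over all genes 400 were higher and 214 lower in the main fit, and 1050 and 656 with DESeq2. The counts over all genes were 1034 and 702 with only those groups, 1509 and 1497 with voom weights and 538 and 287 with the block. Without single libraries 96 to 972 genes were higher. With the vitamins against RANKL the count lower, 6, was 10 with DESeq2, 2 with only those groups, 11 with limma on FPKM at either pseudocount, 10 with voom weights and 1 to 9 without single libraries (count higher 14 to 27, and 28 with voom weights). Over all genes the lower count was 2929 in the main fit, 3671 with DESeq2 and 1912 with only those groups. It was 3953 and 3801 with limma on FPKM + 0.1 and + 1, and 5721 with voom weights. Without single libraries it was 1621 to 4486. The higher count over all genes was 2796 in the main fit, 1578 to 3773 without single libraries and 4977 with voom weights. The replicate block gave 20 higher (19 of them among the main 20) and 5 lower there, with Eif2b3 (0.70, adjusted p = 0.0627) and Eif4e2 (-0.28, adjusted p = 0.0643) no longer called. Over all genes that fit gave 2954 higher and 2919 lower. Against PBS the count lower, 8, was 13 with voom weights and 4 to 8 without single libraries. Over all genes it was 3564 in the main fit, 5730 with voom weights and 2297 to 4725 without single libraries. With limma on log2(FPKM + 0.1) the median of all genes moved from -0.04 to -0.16, and the higher share of calls over all genes from 48.8% to 35.6% (36.8% with a pseudocount of 1); 17 members were then higher and 11 lower.

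The median log2 fold change with the vitamins against RANKL was, with FPKM + 0.1, FPKM + 1 and voom weights, 0.43, 0.40 and 0.71 for eIF2 subunits (0.47 to 0.76 without single libraries), 0.16 and 0.16 for eIF3 at both pseudocounts (0.22 to 0.46), and 0.094, 0.092 and 0.37 for eIF4 with 4E-BPs (0.22 to 0.32). Between RANKL and PBS it was 0.21 for eIF2 and 0.16 for eIF4 with FPKM + 0.1, and -0.064 to 0.10 for eIF4 without single libraries. Against PBS it was 0.22 to 0.43 for eIF3 and 0.24 to 0.38 for eIF4 without single libraries, and 0.32 for eIF4 with counts divided by 4. Members whose uncalled difference with the vitamins against RANKL changed sign were Eif2b1 (-0.17 to 0.070 without single libraries), Eif2b5 (-0.00241 with no filter, -0.00124 with a stricter filter, -0.11 and -0.10 with FPKM + 0.1 and + 1, -0.057 to 0.093 without single libraries) and Eif4ebp3 (-0.0115 and -0.00807 with FPKM + 0.1 and + 1, -0.15 to 0.295 without single libraries).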
